A study of Mus musculus with 6 samples.

Results

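VCP, also known as p97, and 9 of its cofactors were followed in the muscle of mice in which the proteasome subunit Rpt3 was deleted by a Cre of fast-twitch fibers. The 10 genes were chosen by symbol, as the ATPase and a set of its adaptor proteins (Vcp, Nploc4, Ubxn4, Vcpip1, Nsfl1c, Ubxn1, Ubxn6, Faf1, Faf2 and Plaa), and were found through the probe annotation of the array. They are 10 of 18563 genes named on the array, and all 10 were among the 14732 genes tested. RNA from 3 Rpt3-/- mice (labelled Rpt3 null) and 3 Rpt3+/+ mice (labelled control) was hybridised to CodeLink mouse whole-genome bioarrays, a single-color platform that gives a fluorescence intensity for each probe, with 1 array per mouse. All 6 mice were female and 6 weeks old, and all carried the Mlc1f-Cre transgene, which expresses Cre recombinase from the promoter of fast myosin light chain 1. Rpt3-/- mice were homozygous for the floxed Rpt3 allele, whereas the study gives the controls as Mlc1f-Cre/Rpt3+/+ mice, although the labels give both groups the strain mlc1f-Cre/ Rpt3-floxed. Excision by this Cre is incomplete, and nuclei that escaped it, slow-twitch fibers and cells other than muscle may add Rpt3 transcripts to the RNA of the Rpt3-/- muscle. The labels name the tibialis anterior and the study's text the gastrocnemius, both of which are dominated by fast-twitch fibers.

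VCP is a hexameric AAA ATPase that pulls ubiquitylated proteins out of membranes, complexes and chromatin, so that they can be unfolded and passed to the proteasome or to autophagy. It is recruited to its different tasks by cofactors, many of which bind its N-terminal domain through a UBX or UBX-like domain. Missense mutations in VCP cause a dominant disease with inclusion body myopathy, Paget disease of bone and frontotemporal dementia, in which muscle fibers accumulate ubiquitylated inclusions and rimmed vacuoles.

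Psmc4, which encodes Rpt3, was read first as a check of the labels. Its brightest probe gave log2 intensities of 10.01, 9.78 and 9.85 in Rpt3-/- muscle and 11.16, 10.91 and 11.06 in Rpt3+/+ muscle. The 3 Rpt3-/- arrays were all below the controls, by 1.17 on average (2.24-fold lower, adjusted p = 0.000307, limma). A dimmer probe of Psmc4, above background on 4 arrays, changed by -0.23 and did not pass the test over all probes (adjusted p = 0.399, limma). Between 57.0% and 74.5% of the probes were above background on an array, and the lowest share was that of the second control array.

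Of the 10 genes, 7 were higher in Rpt3-/- muscle, none was lower, and 3 did not pass the test. The p47 adaptor gene Nsfl1c, the Ufd1 partner gene Nploc4 and the UBX protein genes Ubxn4 and Ubxn1 rose by 2.21- to 2.49-fold, and Vcp, Vcpip1 and Ubxn6 rose by 1.56- to 1.83-fold. Faf1, Faf2 and Plaa had log2 fold changes of 0.40, 0.40 and 0.32 that did not pass. Across all tested genes, 12.7% were called higher and 6.56% lower at an adjusted p under 0.05 in limma, with Benjamini-Hochberg adjustment over all 14732 genes. The median log2 fold change (Rpt3-/- over Rpt3+/+) of the 10 genes was 0.78, beside -0.01 over all tested genes. In 8 of the 10 genes the 3 Rpt3-/- arrays did not overlap the 3 controls, which was the case for 36.7% of all tested genes in either direction. All 10 genes were above background on all 6 arrays. Scaling changed these counts. Actb, the actin gene, was itself 0.45 higher in Rpt3-/- muscle (adjusted p = 0.0294, limma, and up to 0.143 on leaving out single arrays). It was 0.77 higher when the arrays were centered on their medians in place of quantile normalization. Median centering alone called 8 of the 10 genes higher, beside 2556 of all 14732 genes. Median centering followed by centering on Actb, called median and Actb centering from here on, moved the median of all genes to -0.72. The number of the 10 genes called higher was then 4 (Nploc4, Ubxn4, Nsfl1c and Ubxn1), and Faf1, Faf2 and Plaa had negative values. Among all 14732 genes, 329 were then called higher and 10330 lower. These are measurements of whole muscle, in which more RNA per fiber and more cells of a type that expresses a gene cannot be told apart.

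**Figure D1:**
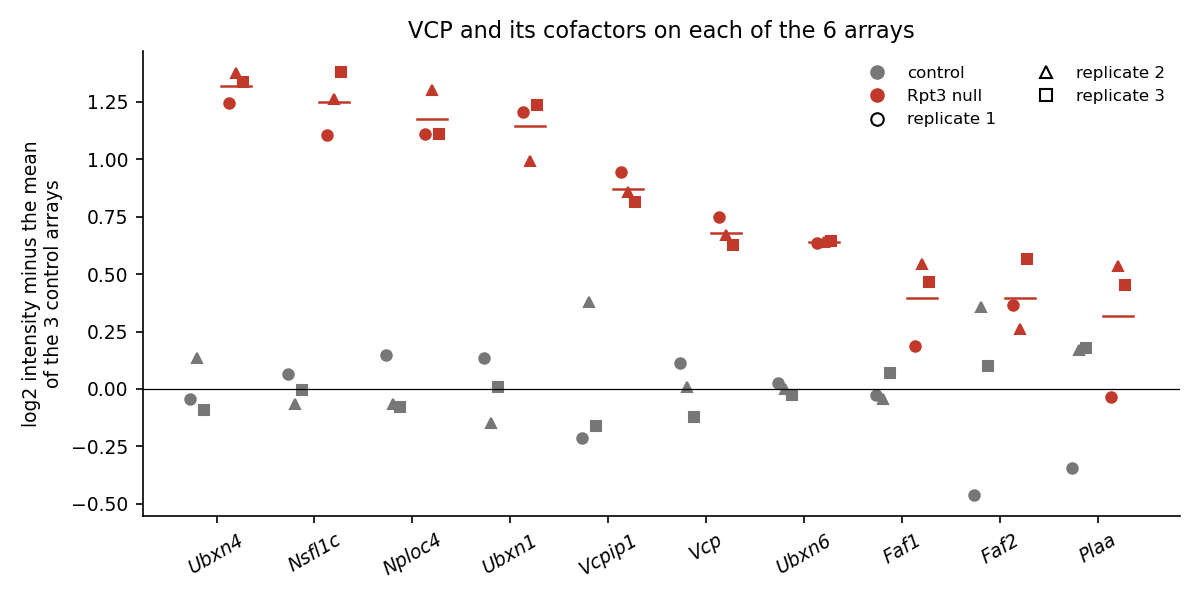
Log2 intensity of each gene on each of the 6 arrays, minus the mean of that gene's 3 control arrays (y axis, log2 units), for the 10 genes in order of their change (x axis). Gray points are control and red points Rpt3 null arrays, the shapes mark replicates 1 to 3 and the red lines are the Rpt3 null means. The red points stand clear of the gray ones for the genes from Ubxn4 to Faf1, narrowly for Faf1, and mix with them for Faf2 and Plaa.

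Vcp itself, the ATPase, was measured by 1 probe. Its log2 intensities were 12.09, 12.01 and 11.96 in Rpt3-/- muscle and 11.45, 11.35 and 11.22 in Rpt3+/+ muscle. The lowest Rpt3-/- array was 0.51 above the highest control. The means were 12.02 ± 0.061 and 11.34 ± 0.118 (SD, n = 3 each), a log2 fold change of 0.68 (SE 0.13, 95% interval 0.40 to 0.96, 1.60-fold, adjusted p = 0.00436, limma). With this change Vcp ranked at position 1071 among the 14732 genes, so that 92.7% of the genes had a smaller rise or a fall. The rise of Vcp was 0.99 with median centering (adjusted p = 0.000537) and did not pass with median and Actb centering (0.22, adjusted p = 0.350, limma), where it was 0.94 above the median of all genes.

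The sequence before the transcription start site was read for the genes with an entry in the promoter table of RefSeq (mouse GRCm38.p6), which matched 9 of the 10 genes through 11 promoters, 3 of them of Ubxn6. The 250 bases upstream of Vcp and of the genes with the highest rises, Ubxn4 and Nsfl1c, are printed 5′ to 3′ on the strand of the gene, so that the ATPase can be read beside its most changed cofactors. They lie at chr4:43000508-43000757 (minus strand) for Vcp, chr1:128243887-128244136 (plus strand) for Ubxn4 and chr2:151493932-151494181 (plus strand) for Nsfl1c. Capitals mark the core of the antioxidant response element, TGACNNNGC, and the CCAAT box, CCAAT, on either strand.
Vcp: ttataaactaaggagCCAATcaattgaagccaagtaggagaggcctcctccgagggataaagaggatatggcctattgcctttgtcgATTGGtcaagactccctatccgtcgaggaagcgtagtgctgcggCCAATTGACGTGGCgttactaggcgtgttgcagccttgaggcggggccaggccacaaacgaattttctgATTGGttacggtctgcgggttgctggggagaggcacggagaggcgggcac
Ubxn4: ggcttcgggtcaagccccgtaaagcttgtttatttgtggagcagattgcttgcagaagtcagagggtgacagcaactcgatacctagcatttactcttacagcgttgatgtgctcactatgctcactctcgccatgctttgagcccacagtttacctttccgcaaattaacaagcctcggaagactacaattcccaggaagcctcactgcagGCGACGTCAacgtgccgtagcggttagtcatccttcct
Nsfl1c: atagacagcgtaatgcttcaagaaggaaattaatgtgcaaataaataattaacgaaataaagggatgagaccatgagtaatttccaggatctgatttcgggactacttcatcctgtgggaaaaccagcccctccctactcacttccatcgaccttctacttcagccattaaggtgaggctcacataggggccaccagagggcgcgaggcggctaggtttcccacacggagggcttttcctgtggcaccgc

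The antioxidant response element is the site of the stress factors NRF1 and NRF2, and the CCAAT box that of NF-Y. TGACNNNGC was found in 2 of the 9 genes, Vcp and Ubxn4, which is 2 of their 11 promoters, and in 10.2% of all 32851 promoters of the same length. In Vcp it read TGACGTGGC, from 114 to 106 bases before the start, directly behind a CCAAT box. In Ubxn4 it lay on the other strand, 38 to 30 bases before the start, and read GCGACGTCA in the direction of the gene. Both matches also contain TGACG, the half-site of the cAMP response element. Vcp held 4 CCAAT boxes and Ubxn6 was the other gene with any, so that 3 of the 11 promoters had one, beside 33.8% of all promoters. Neither motif was found in the printed bases of Nsfl1c. Of the other motifs searched on both strands, the heat shock element core GAANNTTC was found in Vcp and Nploc4 (2 of the 11 promoters, 6.69% of all promoters). The E-box CACGTG was found in Faf1, Ubxn1 and Ubxn6 (3 of 11, 6.02% of all). The ETS core CCGGAAG was found in Faf2 (1 of 11, 6.91% of all), and the FoxO element GTAAACA in none (3.17% of all). These matches describe letters in a window and were not tested as binding sites.

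The major substrate adaptors of VCP are the Ufd1-Npl4 heterodimer, which carries proteins tagged with Lys48-linked ubiquitin chains, and p47, which serves membrane fusion and other tasks. Nploc4, which encodes Npl4, had log2 intensities of 10.92, 11.11 and 10.92 in Rpt3-/- muscle and 9.96, 9.75 and 9.73 in Rpt3+/+ muscle. The groups were 0.96 apart at their nearest arrays, and the log2 fold change was 1.17 (SE 0.13, 2.26-fold, adjusted p = 0.000286, limma). Ufd1, its partner, was no member of the 10 and is named here after its values were seen. It gave 8.88, 9.26 and 9.41 against 8.25, 8.67 and 8.56, which did not overlap either (log2 fold change 0.69, adjusted p = 0.0184, limma). The call of Ufd1 was lost in 5 of 20 alternative analyses, among them those that left out replicate 2 or 3 of the Rpt3-/- group or replicate 3 of the controls, where its change was between 0.57 and 0.84 over all single omissions and the adjusted p reached 0.0880 (limma).

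Nsfl1c, which encodes p47, had log2 intensities of 11.83, 11.98 and 12.10 in Rpt3-/- muscle and 10.79, 10.66 and 10.72 in Rpt3+/+ muscle. All Rpt3-/- arrays were more than the spread of either group above the controls, with a gap of 1.04. The log2 fold change was 1.25 (SE 0.13, 2.37-fold, adjusted p = 0.000185, limma).

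Among the UBX-domain proteins, Ubxn4 (also called erasin) sits in the membrane of the endoplasmic reticulum and takes part in the removal of misfolded proteins from it. Its log2 intensities of 11.85, 11.98 and 11.94 in Rpt3-/- muscle were all above the 10.56, 10.74 and 10.51 of Rpt3+/+ muscle, with a gap of 1.11. Its log2 fold change was the largest of the 10 genes in the fit reported here, 1.32 (SE 0.13, 95% interval 1.04 to 1.60, 2.49-fold, adjusted p = 0.000130, limma), at position 199 among all tested genes.

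Ubxn1 (SAKS1) binds ubiquitin chains as well as VCP and was read by 2 probes. The brighter gave 12.85, 12.64 and 12.88 in Rpt3-/- muscle against 11.78, 11.50 and 11.66 in Rpt3+/+ muscle, without overlap (log2 fold change 1.14, SE 0.14, 2.21-fold, adjusted p = 0.000406, limma). The dimmer probe, designed on a cDNA clone, gave 7.76, 7.49 and 7.76 against 7.04, 7.43 and 7.19. It also did not overlap between the groups, but its change was 0.45 and did not pass the test over all probes (adjusted p = 0.0678, limma). The 2 probes thus pointed the same way and gave rises of different size.

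Ubxn6 (UBXD1) works with VCP on damaged lysosomes and in the sorting of caveolin. Its 3 Rpt3-/- arrays stood at 10.19, 10.19 and 10.20 and its controls at 9.58, 9.55 and 9.53. The spread within groups, with SDs of 0.0053 and 0.027, included the lowest among the 10 genes, for which the median SD was 0.122. The log2 fold change was 0.64 (SE 0.12, 1.56-fold, adjusted p = 0.00403, limma), and the call was lost with median and Actb centering (0.087, adjusted p = 0.724).

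Faf1 and Faf2 are related UBX proteins that also bind ubiquitin, and Faf2 (UBXD8) is anchored in the endoplasmic reticulum and on lipid droplets. Faf1 gave 10.61, 10.97 and 10.89 in Rpt3-/- muscle and 10.40, 10.38 and 10.49 in Rpt3+/+ muscle. The groups were only 0.11 apart, and the log2 fold change of 0.40 had a 95% interval of 0.09 to 0.70 and an adjusted p of 0.0689 (limma). Faf1 passed the test in 5 of the 20 alternatives, with median centering (0.67, adjusted p = 0.00433), cyclic loess, a variance trend, array weights or without the first Rpt3-/- array (0.50, adjusted p = 0.0495, limma).

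Faf2 gave 7.90, 7.80 and 8.10 in Rpt3-/- muscle and 7.08, 7.90 and 7.64 in Rpt3+/+ muscle. The second control array, with the lowest share of probes above background, lay within the Rpt3-/- range. The log2 fold change was 0.40 (95% interval -0.05 to 0.84, adjusted p = 0.205, limma). It was 0.58 without the second control array (adjusted p = 0.0354) and 0.17 without the first (adjusted p = 0.486, limma).

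Vcpip1 encodes a deubiquitylase that acts with VCP and p47 in the reassembly of the Golgi after mitosis. Its log2 intensities were 7.89, 7.80 and 7.76 in Rpt3-/- muscle and 6.73, 7.32 and 6.78 in Rpt3+/+ muscle. Again the second control array was the highest of the controls, but it stayed 0.44 below the lowest Rpt3-/- array. The log2 fold change was 0.87 (SE 0.17, 1.83-fold, adjusted p = 0.00549, limma). With plain background subtraction it was 1.34 and with the authors' own normalized intensities 1.33, while the unpaired test named in the study's methods, after Benjamini-Hochberg adjustment over all genes, did not call it (adjusted p = 0.0756) and median and Actb centering left 0.15 (adjusted p = 0.548).

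Plaa, which encodes the phospholipase A2-activating protein, a ubiquitin-binding partner of VCP in the clearance of damaged lysosomes, gave 9.28, 9.85 and 9.77 in Rpt3-/- muscle. The Rpt3+/+ values were 8.97, 9.48 and 9.49. The first array of each group was the lowest of its group, and the groups overlapped. The log2 fold change was 0.32 (95% interval -0.12 to 0.75, adjusted p = 0.300, limma). It ranged up to 0.49 without the first Rpt3-/- array and was 0.21 without the second, and it was 0.15 without the first control array. In none of these did it pass the test.

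The genes differed among themselves in how far they rose. To set each cofactor against the ATPase, the log2 intensity of Vcp on the same array was subtracted from that of every gene and the differences were fitted for all other 14731 tested genes. Relative to Vcp, 4 of the 9 cofactors rose more, where 2.31% of all genes did. The additional log2 rise was 0.64 for Ubxn4 (95% interval 0.29 to 0.98, adjusted p = 0.00301), 0.57 for Nsfl1c (adjusted p = 0.00684), 0.49 for Nploc4 (adjusted p = 0.0109) and 0.46 for Ubxn1 (adjusted p = 0.0183, limma). None of the 9 rose less than Vcp by this test, where 76.9% of all genes did. All tests of this fit and of its alternatives share the values of Vcp, including its rise and its spread. With most genes called, the Benjamini-Hochberg adjustment raised p-values less than in the fit of Rpt3-/- over Rpt3+/+ muscle. An adjusted p under 0.05 was therefore less strict relative to Vcp than in that fit, and the 2 sets of calls are not comparable. Vcpip1 (0.19, 95% interval -0.21 to 0.59) and Ubxn6 (-0.04, 95% interval -0.37 to 0.29) were not told apart from Vcp, with adjusted p-values of 0.347 and 0.810. For Vcpip1 the difference depended on processing. It was 0.65 with plain background subtraction (adjusted p = 0.0721) and -0.069 with median centering (adjusted p = 0.725, limma). Faf1, Faf2 and Plaa lay 0.28, 0.28 and 0.36 below Vcp as values (differences of -0.28, -0.28 and -0.36), with adjusted p-values of 0.151, 0.257 and 0.154 (limma). In 13 alternatives of this fit, covering background correction, normalization, the authors' own normalized intensities, the mean of probes and the omission of each array, Ubxn4 and Nsfl1c rose more than Vcp in all 13. The Actb step cancels when Vcp is subtracted on the same array. Median and Actb centering therefore repeats median centering among the 13 and is not a separate alternative. Nploc4 did so in 11, without a call for the authors' intensities (0.36, adjusted p = 0.106) and without Rpt3-/- replicate 2 (0.42, adjusted p = 0.0636, limma). Ubxn1 did so in 9, and its difference was 0.12 with the mean of its probes (adjusted p = 0.499, limma). Ubxn1 was also not called with the authors' intensities (adjusted p = 0.0933), without Rpt3-/- replicate 3 (0.39, adjusted p = 0.0811) and without control replicate 2 (0.39, adjusted p = 0.0684, limma). Faf2 and Plaa rose less than Vcp in 3 of the 13. These were median centering (-0.51, adjusted p = 0.0303, and -0.49, adjusted p = 0.0491), its repeat with the Actb step, and the fit without control replicate 1 (-0.57, adjusted p = 0.00506, and -0.59, adjusted p = 0.0122, limma).

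**Figure D2:**
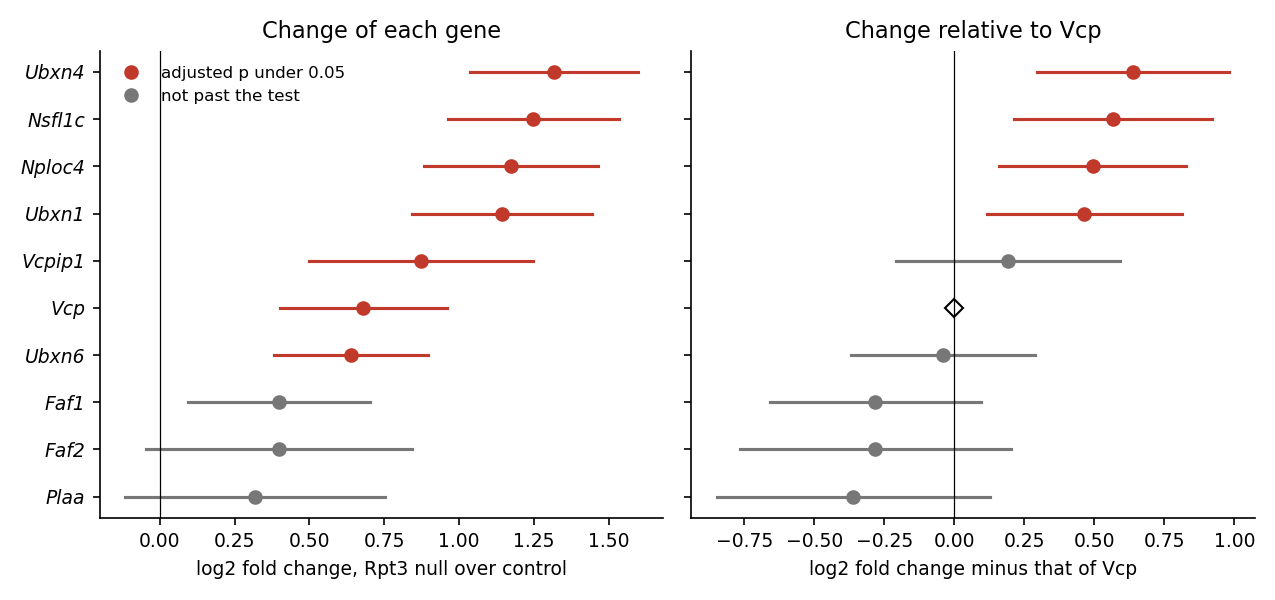
Log2 fold change of each of the 10 genes, Rpt3 null over control (left), and the same minus the change of Vcp (right), on log2 axes. Points are estimates from 3 arrays a group, bars 95% intervals, red points have an adjusted p under 0.05 and the open diamond is Vcp. Ubxn4, Nsfl1c, Nploc4 and Ubxn1 lie to the right of Vcp with intervals that exclude 0, and the intervals of Faf1, Faf2 and Plaa in the right panel include 0.

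The level of Vcp over the 6 arrays was also compared with that of every other gene, as the root mean square difference of the log2 profiles after each was centered on its own mean. Over 14679 genes with a value on all arrays, the nearest were Washc3 (0.028), a subunit of the endosomal WASH complex, Tmem234 (0.045), Atp6v0e (0.046), a subunit of the vacuolar proton pump, Cavin3 (0.047), a coat protein of caveolae, and Smap2 (0.052). The nearest cofactor was Ubxn6, at a difference of 0.068 and position 19, and the other 8 cofactors lay between positions 1590 and 5799. The 6 arrays of 2 groups leave few ways for a profile to differ, so that these ranks are a description only.

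A wider list of 28 VCP partners held none of the 10 genes, and 24 of them were tested. Of these, 9 were higher, 2 were lower and 13 did not pass, and the median log2 fold change was 0.12. The largest rises were those of Vcpkmt (1.32, adjusted p = 0.000241), the methyltransferase of VCP, which was above background on 2 of the 3 control arrays, and Zfand2a (AIRAP, 1.19, adjusted p = 0.000877), an arsenite-inducible protein that binds VCP and the proteasome. Ubxn8, a UBX protein of the endoplasmic reticulum, followed (1.02, adjusted p = 0.00319, limma). The genes called lower were Ubxn2a and, named after its value was seen, Svip. Ubxn2a, a relative of p47, had log2 intensities of 8.10, 8.28 and 8.43 in Rpt3-/- muscle and 9.43, 9.88 and 9.75 in Rpt3+/+ muscle. These did not overlap, and the log2 fold change was -1.42 (adjusted p = 0.000258, limma), a change opposite to that of Nsfl1c. Svip, a small inhibitor of VCP in the degradation of proteins from the endoplasmic reticulum, changed by -0.75 on the log2 scale (adjusted p = 0.0145, limma), with adjusted p up to 0.0696 on leaving out replicate 1 or 3 of the Rpt3-/- group or replicate 3 of the controls. The number of partners called fell from 11 to 5 without the third Rpt3-/- array and to 5 without the third control array. Median and Actb centering gave 1 partner higher and 11 lower, beside 329 higher and 10330 lower among all genes.

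Other genes of the pathway were described in the same fit. Among 17 tested genes of quality control in the endoplasmic reticulum, 1 was higher, Sel1l, the scaffold of the Hrd1 ligase (0.63, adjusted p = 0.0496, limma), and its call was lost in 13 of 20 alternatives, among them every omission of 1 array except that of control replicate 2 (adjusted p up to 0.183). The list median was 0.07, and Hspa5, the chaperone BiP, named after its value was seen, stood at 0.05 on the same scale (adjusted p = 0.914, limma). Among 10 tested shuttles and ubiquitin receptors, through which substrates reach the proteasome, 4 were higher and none lower (median 0.24). They were the proteasome receptors Psmd4 (1.27, adjusted p = 0.000518), Adrm1 (0.71, adjusted p = 0.00467) and Psmd2 (0.59, adjusted p = 0.0243), and Ubqln1 (0.57, adjusted p = 0.0456, limma), whose call was lost in 11 of the 20. Ubqln1 was not called on leaving out any 1 array except control replicate 2 (adjusted p up to 0.142), and Psmd2 was not called without replicate 2 or 3 of the Rpt3-/- group (adjusted p up to 0.0961, limma). A dimmer probe of Ubqln1, above background on all 6 arrays, changed by -0.085 (adjusted p over all probes = 0.762, limma). The other 4 tested type II AAA ATPases of the same kind as VCP had no call and a median of -0.02. Their values ran from -0.38 for Nsf (adjusted p = 0.276, limma), the membrane fusion ATPase, to 0.10 for Pex6, named after its value was seen.

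Of 13 tested genes of inclusion body and other protein aggregate myopathies, 4 were higher and 2 lower, with a median of 0.07. Tbk1, a kinase of selective autophagy, rose by 0.92 (adjusted p = 0.00242, limma). The genes Sqstm1, the autophagy receptor p62, and Dnajb6, a chaperone, named after their values were seen, rose by 0.72 (adjusted p = 0.0147) and 0.69 (adjusted p = 0.00851, limma). The calls of Tbk1, Sqstm1 and Dnajb6 were lost with median and Actb centering, and that of Sqstm1 also on leaving out replicate 2 or 3 of the Rpt3-/- group or replicate 3 of the controls (adjusted p up to 0.0716). The Z-disc protein genes Ldb3 (-0.97, adjusted p = 0.000525) and Myot (-1.15, adjusted p = 0.0124, limma) were lower, and the call of Myot was lost without the first Rpt3-/- array or the third control array (adjusted p up to 0.0636). Sqstm1, Dnajb6 and Myot also lost their calls with the unpaired test of the study's methods. Of 16 tested genes of lysosome and membrane quality control, the setting in which Ubxn6 and Plaa work, 3 were higher and 2 lower. The galectin gene Lgals1 (1.13, adjusted p = 0.00308) and the autophagosome gene Map1lc3a (0.72, adjusted p = 0.0145, limma) rose. Gabarap, a relative of Map1lc3a, rose from log2 intensities of 9.76, 9.69 and 9.52 in Rpt3+/+ muscle to 10.82, 10.58 and 10.57 in Rpt3-/- muscle (adjusted p = 0.000803, limma). Pink1, the mitophagy kinase, fell by 1.12 (adjusted p = 0.00270, limma). Mfn2, a mitochondrial fusion protein and substrate of VCP, named after its value was seen, fell by 0.62 (adjusted p = 0.0112, limma). Map1lc3a and Mfn2 were not called without replicate 1 of the Rpt3-/- group or replicate 3 of the controls (adjusted p up to 0.0750 and 0.0652, limma). With the unpaired test of the study's methods 1 gene of this list was higher, Gabarap, and none was lower, so that Lgals1, Map1lc3a, Pink1 and Mfn2 lost their calls.

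**Figure D3:**
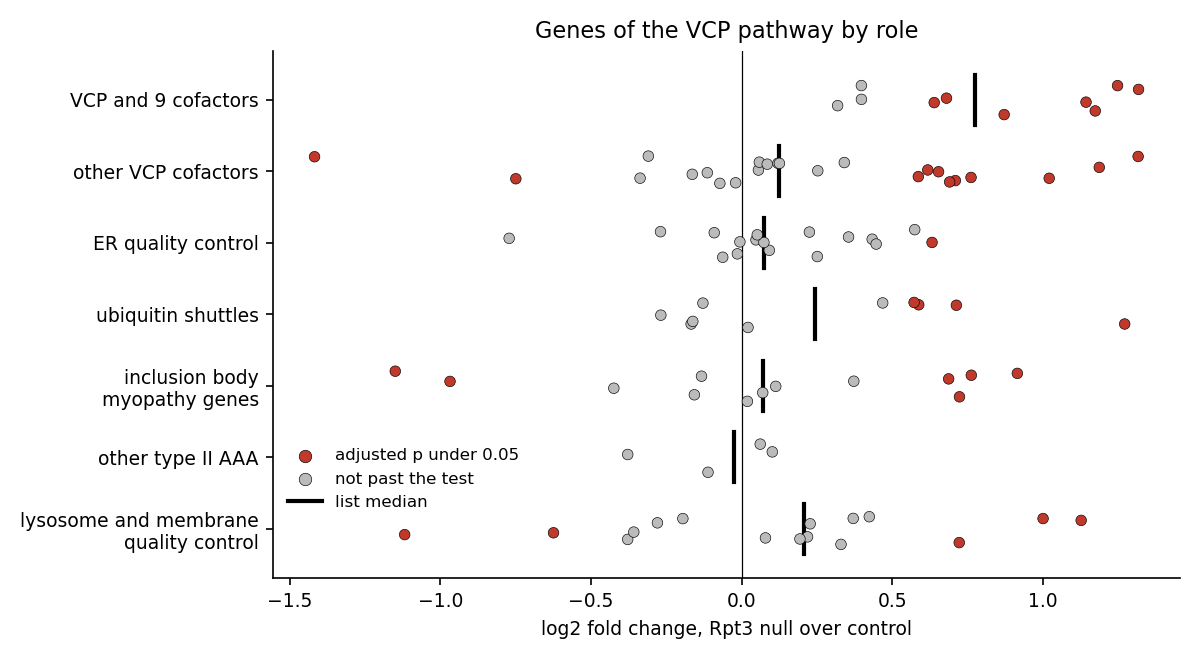
Log2 fold change, Rpt3 null over control (x axis), of every tested gene in 7 lists of the VCP pathway (y axis). Each point is a gene, red with an adjusted p under 0.05, and black bars are list medians. The bar of VCP and its 9 cofactors stands at 0.78 and those of the other lists between -0.02 and 0.24.

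Markers of other cell types moved with the groups. Of 14 tested macrophage markers, 11 were higher and none lower (median log2 fold change 1.39), and their summed linear intensity was between 8629 and 12750 on Rpt3-/- arrays and between 3291 and 3757 on control arrays. Adgre1, Itgam and Ptprc were on the array but were not above background on at least 3 arrays. The summed intensity of the 10 genes was between 24810 and 26250 on Rpt3-/- arrays and between 12820 and 13460 on control arrays. The first Rpt3-/- array had the highest macrophage sum. It was the highest of the 3 for Vcp and Vcpip1, and in the middle for Nploc4, Ubxn1 and Faf2. It was the lowest for Ubxn4, Nsfl1c, Ubxn6, Faf1 and Plaa, although the 3 values of Ubxn6 lay only between 10.19 and 10.20. An order of 3 arrays is a description only. Of 8 markers of muscle precursors and regenerating fibers 5 were higher (Pax7 was on the array and not tested), of 8 slow-fiber genes 6 were higher, and of 11 fast-fiber genes 1 was higher and 3 were lower (median -0.22). Cyclic loess in place of quantile normalization called 8 of the fast-fiber genes lower (median -0.69), and median and Actb centering 10. Of 11 fibroblast markers 4 were higher, and of 8 endothelial markers none was called. Of 4 adipocyte markers 2 were higher, named after their values were seen, Cfd (1.57, adjusted p = 0.00121) and Adipoq (1.21, adjusted p = 0.00727, limma). Of 7 neural markers 1 was higher, Ncam1 (1.61 for its brightest probe, adjusted p = 0.000381, limma), named likewise, and of 2 blood markers none was called. Dimmer probes of Ncam1 changed by 0.41 and -0.19 and did not pass the test over all probes (adjusted p = 0.0862 and 0.423, limma). The part of these shifts in the values of the 10 genes was not tested.

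Across the 20 alternative analyses the calls of Nploc4, Ubxn4, Nsfl1c and Ubxn1 were the same in all, and the 7 called genes were called in each of the 6 analyses that left out 1 array.

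**Figure D4:**
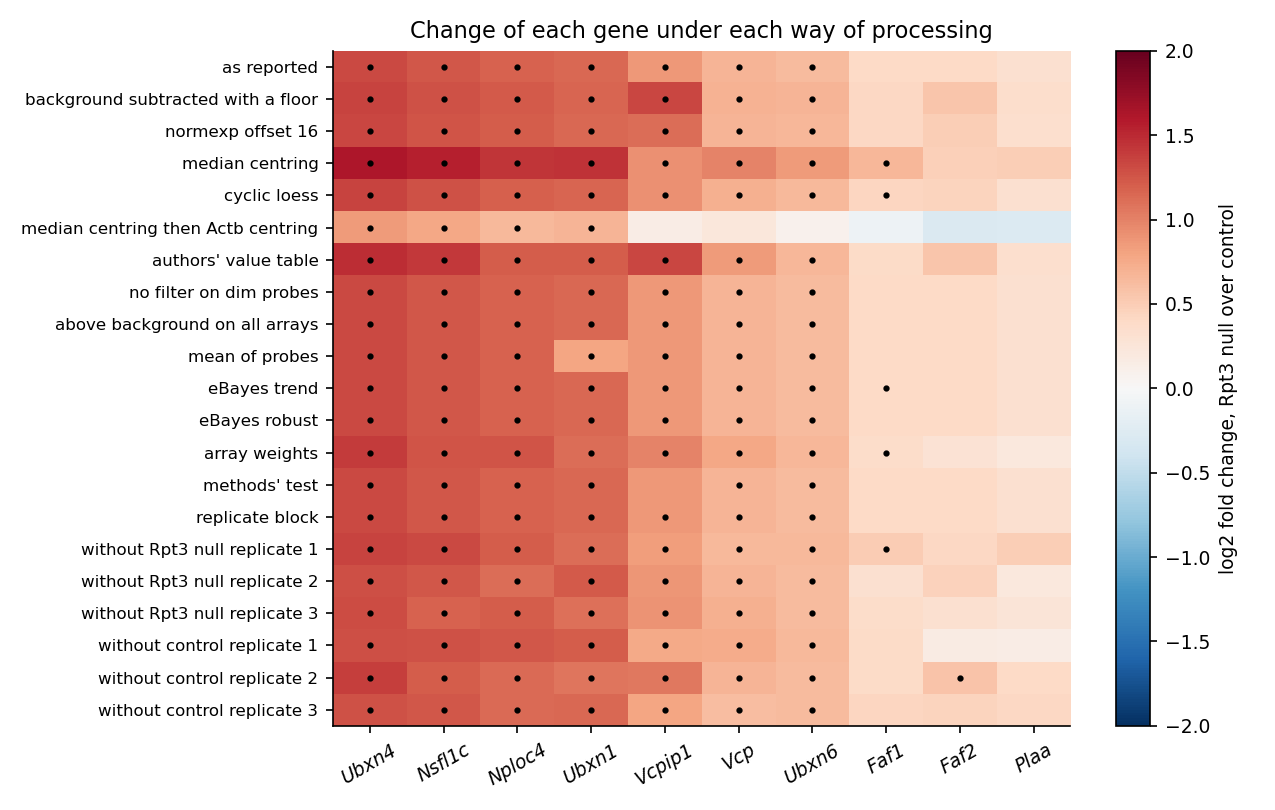
Log2 fold change, Rpt3 null over control, of the 10 genes (columns) in the reported fit and the 20 alternatives (rows), shown by color, with a dot where the adjusted p was under 0.05. The 4 columns at the left carry a dot in every row, and the row with median and Actb centering is the one with negative values, for Faf1, Faf2 and Plaa.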

How the data were processed

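RNA of 3 Rpt3-/- and 3 Rpt3+/+ muscles was read on 6 arrays. The deposited scanner reports hold an intensity, a local background and a quality flag for each spot, as the authors exported them from the scanner software (CodeLink Expression Analysis, version 5.0.0.31312), not normalized between arrays. The authors' value table of linear intensities had a median of 89.0 in every column, correlated with its own array at 0.998 or above, and was used as an alternative. Of 34967 transcript probes, 21615 were named through the platform annotation, which can be old, and 536 through RefSeq accessions. Probes with several symbols, 681 in all, stayed unnamed, among them 1 that Ubxn6 shares with Chaf1a. Another 12135 had no name here.

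In R 4.3.3 with limma 3.58.1, backgrounds were corrected by normexp with an offset of 50, which lowers fold changes of dim probes, control spots were left out and arrays were quantile normalized. Genes above background on at least 3 arrays were tested by lmFit and eBayes, with the brightest probe standing for a gene and Benjamini-Hochberg adjustment over all genes. For 52 genes a spot was missing on at least 1 array. p-values rest on the spread among 3 mice a group, moderated by eBayes with the spread of all tested genes. The number of arrays limits the precision. The script was tested on simulated data. It called 31 of 50 genes raised 2-fold and 31 of 50 lowered 2-fold. At 1.5-fold it called 5 of 50 raised and 7 of 50 lowered genes, so that small changes can be missed. The 10 genes, the pathway and marker lists and the motifs were chosen with earlier results of these data known, and the comparison with Vcp and the motif search were added after seeing the data. In each pathway list, the called genes with the largest changes, at most 4, and the gene of lowest adjusted p are named. 1 further gene taken by this rule is not reported here. Genes outside the rule are marked as named after their values were seen. Alternatives covered background correction, normalization, filter, probe choice, variance model, test, replicate block and omission of each array. The replicate numbers did not show a pairing of the mice: deviations of same-numbered arrays correlated at 0.13, -0.44 and 0.10. Those of differently numbered arrays correlated at values from -0.49 to 0.47. With 3 arrays a group, these values cannot settle whether arrays were paired or shared a batch. Absolute levels of different genes were not compared. The fit relative to Vcp did take differences between probes on the same array, and the summed intensities added probes. Both therefore depend on the response of each probe, and the fit also on the offset where a probe is dim. Promoters were read with Python 3.11.15.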

Additional observations from a re-analysis of the deposited data

How the results depend on the processing

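With each array centered on Actb after median centering, 4 of the 10 genes were called higher instead of 7. Among all genes 329 were then called higher and 10330 lower. Faf1 (-0.10, adjusted p = 0.705), Faf2 (-0.29, adjusted p = 0.264) and Plaa (-0.27, adjusted p = 0.325, limma) changed sign, while their values relative to the median of all genes were 0.62, 0.43 and 0.44. Median centering called 2556 genes higher and 602 lower, against 1870 and 967 in the reported fit, and 8 of the 10 genes higher. Array weights called 3004 and 2357, and the unpaired test of the study's methods 940 and 427. That test called 4 of the wider list of partners instead of 11. Leaving out 1 array gave 5 to 11 partners called and 7 or 8 of the 10 genes. Leaving out the third Rpt3-/- array left 1090 genes called higher and the third control array 1098. With the replicate number as a block, 7 of the 10 genes were called higher and 11 partners were called, and no call of the 10 genes changed. In all alternatives none of the 10 genes was called lower. Relative to Vcp, Vcpip1 changed sign with median centering, with or without the Actb step (-0.069, adjusted p = 0.725), and Ubxn6 without control replicate 3 (adjusted p = 0.974, limma), its values on leaving out 1 array being between -0.084 and 0.0066. These fits were added after seeing the data. The causes of these changes were not tested, and 3 arrays a group limit what can be called.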
